A study of Mus musculus with 12 samples.

Results

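The genes described here are the transcription factor p53 (Trp53 in mouse) and 29 genes known as its targets or partners. They were chosen by name: each of the 30 symbols matched 1 row of the gene table, out of 78298 rows in all. The choice used no measured value of its own, although earlier results of these data were known when the list was drawn up. RNA was sequenced from C2C12 cells, a mouse myoblast line that fuses into multinucleated myotubes. The wild-type line (WT, 6 libraries) was set against RGECO (6 libraries), a derivative with a genetically encoded calcium sensor, a protein whose fluorescence follows calcium. Both lines were cultured on a methacrylated gelatin hydrogel and had RNA extracted after 14 days in differentiation medium with 10% horse serum, 50 ng/ml IGF-1 and 1 mg/ml aminocaproic acid. The sources used here do not give how the sensor was introduced, which promoter drives it or whether RGECO is a single clone. The labels do not state whether the replicates are separate cultures; the p-values therefore reflect the variation among these libraries only, part of which may be technical.

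In unstressed cells p53 protein is kept scarce by the ubiquitin ligase Mdm2, which is itself a transcriptional target of p53, so that the pair forms a negative feedback loop. DNA damage, oncogene activity and other stresses stabilise the protein, and its targets then slow the cell cycle, repair DNA, adjust metabolism or trigger apoptosis. Because p53 is controlled largely at the level of the protein, the RNA level of Trp53 is not a readout of its activity. In muscle cells several p53 targets, Cdkn1a among them, are also induced by other factors when myoblasts leave the cell cycle.

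The classical p53 response element is a pair of 10-base decamers, each made of 3 purines, a C, 2 bases that are A or T, a G and 3 pyrimidines. Only decamers with this C and this G were considered, and any other departure from the pattern was counted as a mismatch. Short promoter windows, 250 bases before to 50 after each start in the RefSeq promoter table (GRCm38.p6), were available for 22 of the 30 genes, as 32 windows. Both strands were searched. A decamer with no mismatch stood in 10 of the 32 windows, from 9 genes (Aen, Bax, Ccng1, Ei24, Gtse1, Mdm2, Polk, Sesn1 and Trp53), and in 8.36% of all 32851 windows of that length. A pair of decamers with at most 2 mismatches and a spacer of at most 13 bases stood in the windows of 4 genes (Bax, Ccng1, Gtse1 and Sesn1) and in 4.09% of all windows. The sites printed here are those of the genes whose libraries are described one by one below, with Cdkn1a, the best-known p53 target, for comparison; capitals mark the decamers.
Cdkn1a: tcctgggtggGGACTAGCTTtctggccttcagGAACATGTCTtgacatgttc
Ccng1: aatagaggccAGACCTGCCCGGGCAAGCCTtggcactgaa
Sesn1: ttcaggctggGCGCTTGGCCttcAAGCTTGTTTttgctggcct
Bax: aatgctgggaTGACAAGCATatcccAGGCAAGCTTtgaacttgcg
Mdm2: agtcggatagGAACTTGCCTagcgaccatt
Trp53: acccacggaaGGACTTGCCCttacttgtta
The Cdkn1a pair lies at chr17:29090906-29090937 on the plus strand and had 0 mismatches, with a spacer of 12 bases. In each window only the pair with the fewest mismatches was marked. The 10 lower-case bases printed after the Cdkn1a pair depart from the pattern at 1 base. With the decamer directly before them they form another pair, without a spacer. The Ccng1 pair (chr11:40755462-40755481, minus strand) had 1 mismatch and no spacer. The Sesn1 pair (chr10:41887253-41887275, plus strand) and the Bax pair (chr7:45467090-45467114, minus strand) had 2 mismatches each. Mdm2 (chr10:117710935-117710944, minus strand) and Trp53 (chr11:69580284-69580293, plus strand) held a single decamer in their windows. A match is a run of letters and not a measured binding site. The window of Btg2, the gene with the smallest adjusted p of the 30, held no decamer without a mismatch, and Zmat3 had no entry.

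Library totals ran from 9370322 to 11744314 counts in WT and from 5881622 to 11926220 in 5 of the RGECO libraries. The library labelled RGECO 4 held 825 counts in total and 0 in the 30 genes, and was left out of the main comparison. Across the other 11 libraries 3 counts corresponded to 0.246 to 0.525 CPM (counts-per-million, on library sizes scaled by TMM), a floor that covers counting error only. The 95% intervals of fold changes come from the model and include the variation between libraries. The share of counts from mitochondrial genes varied within both lines, from 0.204% to 1.68% in WT and from 0.298% to 1.33% in RGECO. The summed level of 10 muscle markers was 19126 to 26401 CPM in WT and 24167 to 30398 CPM in RGECO, with overlap. Of these Myh3 rose (0.54 on the log2 scale), Myod1 (−0.51) and Actn2 (−0.66) fell, and the other 7 did not pass. The summed level of 6 fibroblast markers was 1877 to 3076 CPM in WT and 793 to 1135 CPM in RGECO, without overlap, and most of the WT sum was Col1a1. Col1a1 (−1.98) and Pdgfrb (−1.59) fell, whereas Dcn rose (0.96, from 180.0 to 350 CPM). Pdgfra (−0.20) and Lum (−0.32) did not pass, and Thy1 was not tested. The 5 macrophage and leukocyte markers summed to 13.1 to 29.7 CPM in WT and 15.4 to 34.3 CPM in RGECO, with Adgre1 at 0. Nearly all of that sum was Cd68, with a mean of 20.4 CPM in each line. Ptprc, Csf1r and Itgam had means of at most 0.582 CPM in either line. The lists of endothelial, of neuronal and glial, and of adipocyte markers each summed to at most 2.80 CPM in any library, with Snap25, Rbfox3, Plin1 and Lep at 0. In such bulk libraries fewer cells of a type and less RNA per cell cannot be told apart.

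The 30 genes spanned a wide range of levels per transcript length. In TPM (transcripts-per-million, scaled by transcript length) the highest mean in WT was that of Phlda3, a repressor of Akt signalling, at 246 ± 26.5 (SD, n = 6). It was followed by Cd82, a tetraspanin of the cell surface, at 237 ± 17.6 TPM and Plk2, a polo-like kinase, at 201 ± 39.7 TPM. The libraries of Phlda3 and Cd82 overlapped, so the order of this pair was not separated by their spread. These 3 genes also held the first 3 places in RGECO, with 321, 243 and 182 TPM, followed there by Ccng1 (175 TPM) and Mdm2 (173 TPM). Trp53 itself was at 31.8 ± 5.85 TPM in WT (SD, n = 6) and 28.9 ± 4.82 TPM in RGECO (SD, n = 5), in place 13 and place 16 of the 30. At the low end in WT stood Tigar (3.49 TPM), Ddb2 (2.99 TPM), Pidd1 (2.06 TPM) and Perp (0.747 TPM). The summed TPM of all 30 genes was 1555 to 1862 in WT and 1999 to 2330 in RGECO, a sum made up mainly of the most abundant members. TPM values were not rescaled between libraries. On log2(TPM + 1) the median log2 fold change was 0.09 over all genes tested and 0.37 over the 29 of these genes that were tested.

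**Figure D1:**
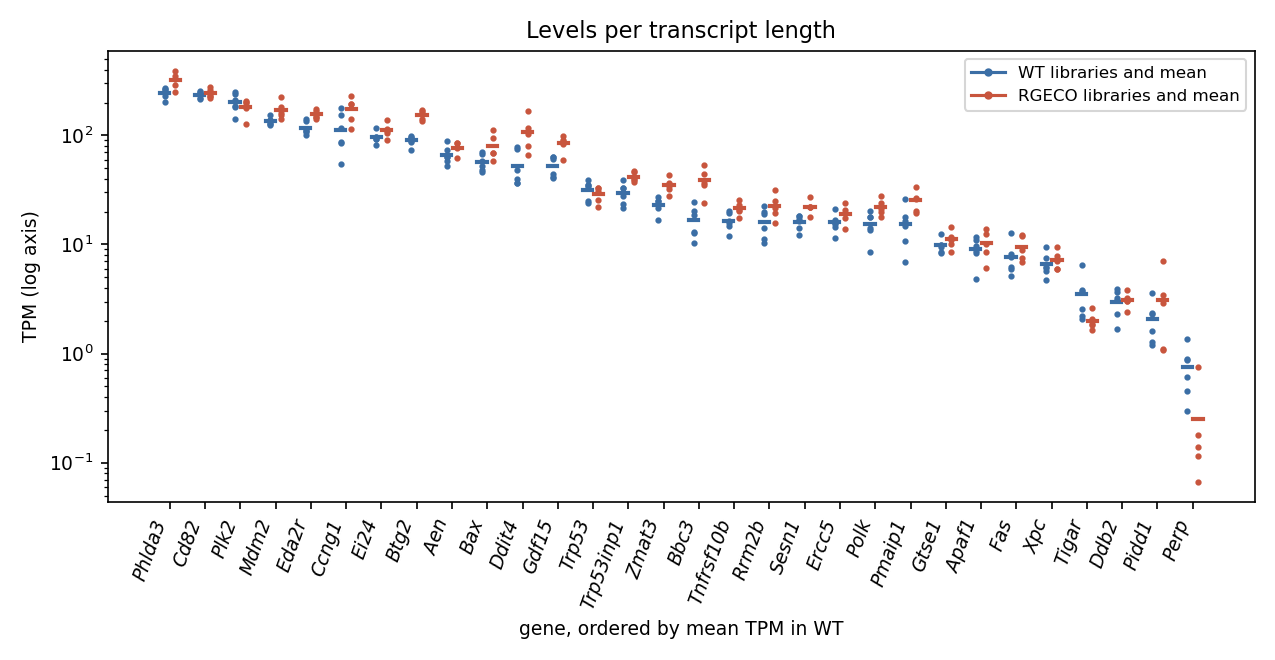
TPM of each of the 30 genes on a log axis, with 1 point per library and WT and RGECO in separate colours, ordered by the WT mean. Phlda3 leads in both lines (means of 246 and 321 TPM) and Perp is lowest (0.747 and 0.250 TPM).

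Between the lines, 2 of the 29 genes with enough counts for the test rose in RGECO, Btg2 and Zmat3, and none fell. These are 6.90% of the genes tested, where 3.42% of all 13318 genes tested were called higher, 4.93% lower and 8.35% in either direction. At an unadjusted p under 0.05, 11 were higher and 3 (Trp53, Plk2 and Tigar) lower, against 9.70% and 12.4% of all genes. The median log2 fold change of the 29 was 0.25, beside a median of −0.01 over all genes tested. Of the 29 values 26 (89.7%) were positive, beside 48.5% of all genes tested. Libraries of the lines did not overlap for Btg2, Zmat3 and Sesn1, all 3 higher in RGECO, which is 10.3% of the 29 beside 3.47% of all genes (4.50% did so with RGECO lower). For 23 of the 29 (79.3%) the 95% interval of the difference lay within 2-fold in either direction, as for 74.0% of all genes. DESeq2 called 5 of the 30 genes higher (the same pair with Bbc3, Sesn1 and Pmaip1), beside 4.09% of all genes. A model by limma on log2(TPM + 1), a scale that understates the change of low genes, called 4 higher (Btg2, Bbc3, Gdf15 and Ddit4) beside 2.58% of all genes, with the median of all genes at 0.09.

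**Figure D2:**
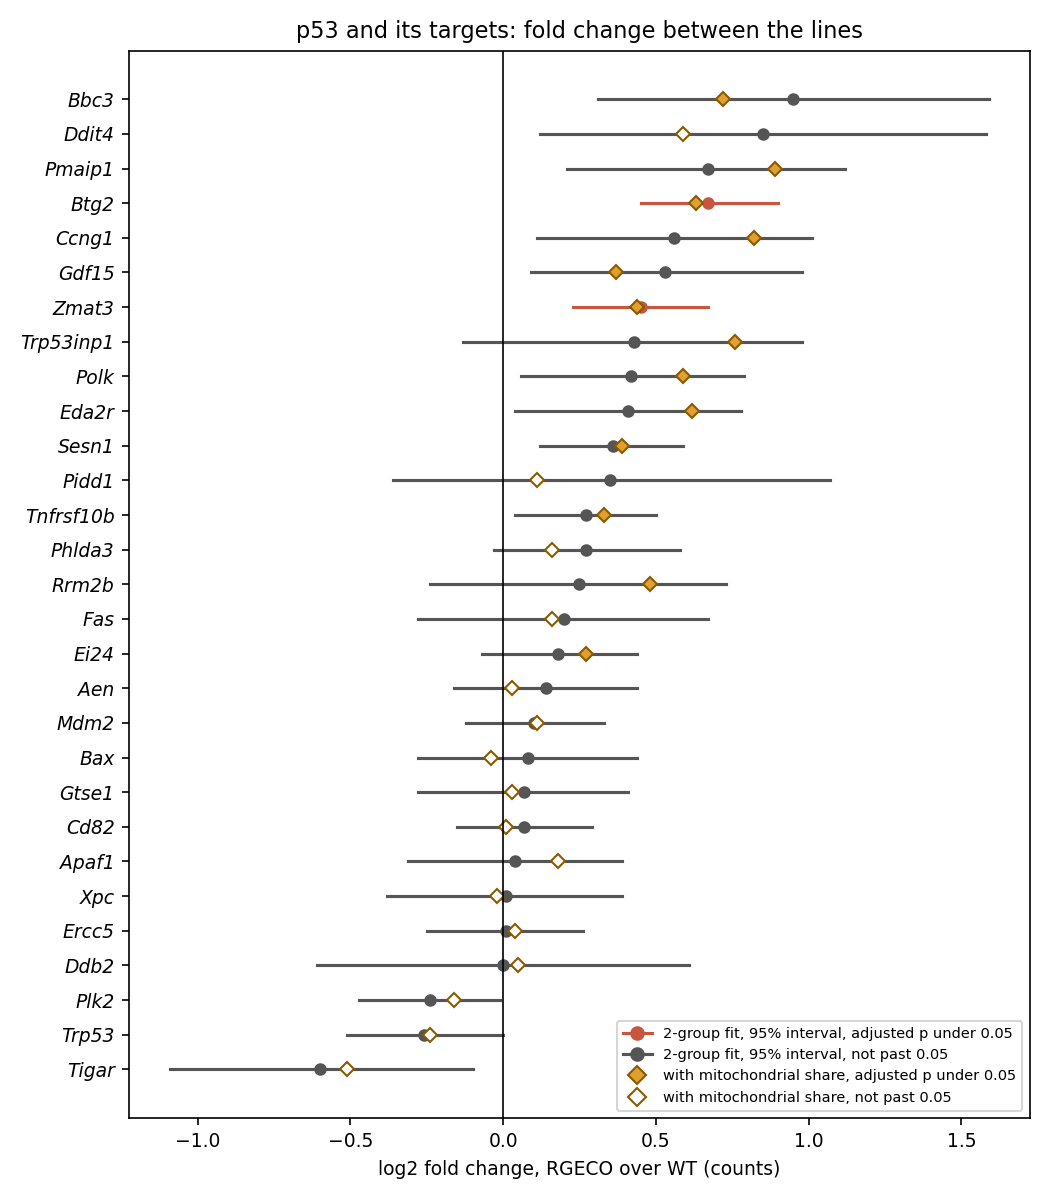
Log2 fold change of RGECO against WT for the 29 genes tested. Circles with bars give the comparison of the lines and its 95% interval (red where the adjusted p is under 0.05, which holds for Btg2, 0.45 to 0.90, and Zmat3, 0.23 to 0.67), and diamonds give the value with the mitochondrial share as a covariate, described further on, filled for the 13 genes that passed there.

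Trp53 (chr11:69580359-69591873) was listed at 40.3, 41.4, 45.4, 51.7, 43.0 and 41.1 CPM in WT 1 to 6. In RGECO 1, 2, 3, 5 and 6 it was at 37.7, 39.2, 42.5, 30.3 and 33.1 CPM. The lines overlapped in RGECO 3 alone, and the other 4 RGECO libraries lay below each WT library. The means were 43.8 ± 4.27 CPM (SD, n = 6) and 36.6 ± 4.89 CPM (SD, n = 5). The log2 fold change, −0.26 ± 0.12 (SE), did not pass (edgeR adjusted p = 0.218). Mdm2 (chr10:117688875-117710758), the ubiquitin ligase that removes p53, was at 195 to 244 CPM in WT with a median of 209.9 CPM. Its RGECO libraries 1, 2, 3, 5 and 6 were at 246, 229, 184, 262 and 225 CPM, spanning the WT range on both sides. The log2 fold change was 0.10 ± 0.11 (SE; edgeR adjusted p = 0.624).

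The genes known for slowing growth held both of those that passed. Btg2 (chr1:134075170-134079120), an antiproliferative protein that recruits the mRNA deadenylation machinery, was at 236, 200.5, 196, 185, 177 and 186 CPM in WT 1 to 6. In RGECO 1, 2, 3, 5 and 6 it was at 302, 327, 279, 373 and 289.6 CPM, so each RGECO library lay above each WT library. The mean rose from 197 ± 21.0 (SD, n = 6) to 314 ± 37.5 CPM (SD, n = 5), 1.60-fold, which is 0.67 ± 0.11 on the log2 scale (SE; edgeR adjusted p = 8.52e-04). Zmat3 (chr3:32334792-32366014), a zinc finger protein that binds RNA, was at 153, 133, 149, 155, 138 and 150.2 CPM in WT 1 to 6. Its values were 216.5, 219.9, 178, 221 and 166 CPM in RGECO 1, 2, 3, 5 and 6, again without overlap, though RGECO 6 and RGECO 3 were close to the upper WT libraries. Its mean rose 1.37-fold, from 147 ± 8.86 (SD, n = 6) to 200.3 ± 26.0 CPM (SD, n = 5), with a log2 fold change of 0.45 ± 0.10 (SE; edgeR adjusted p = 0.0115). Both calls held without any 1 of the 11 libraries, with adjusted p up to 0.00405 for Btg2 and 0.0366 for Zmat3. With the library of 825 counts included, neither was called (0.54, adjusted p = 0.486 for Btg2; 0.36, adjusted p = 0.651 for Zmat3); Pmaip1 was then the 1 gene of the list called higher, beside 1.82% of all genes. Zmat3 was not called by limma on log2(TPM + 1) (0.57, adjusted p = 0.0510).

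**Figure D3:**
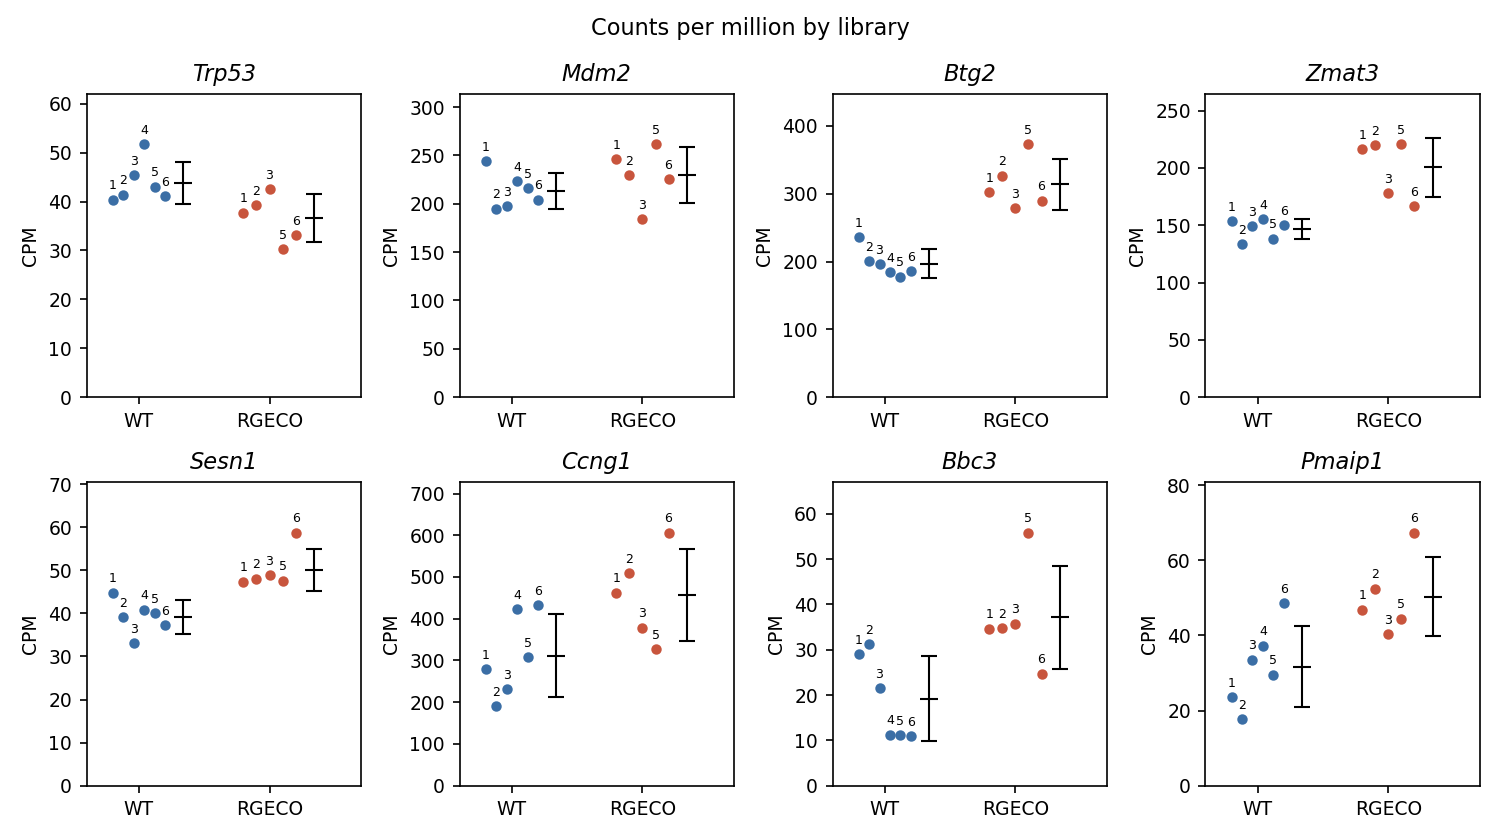
CPM of 8 of the genes in each library, numbered by replicate, with the mean and SD of each line beside the points. The lines do not overlap for Btg2, Zmat3 and Sesn1, while Ccng1 and Bbc3 spread widely within WT (191 to 433 and 10.97 to 31.2 CPM).

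Sesn1, a sestrin that restrains mTORC1 signalling, was at 33.0 to 44.8 CPM in WT with a median of 39.6 CPM. It was at 47.4, 48.1, 48.9, 47.6 and 58.8 CPM in RGECO 1, 2, 3, 5 and 6, all above WT, with a log2 fold change of 0.36 ± 0.11 (SE) that missed the threshold (edgeR adjusted p = 0.0613). Ccng1 (chr11:40748552-40755311), cyclin G1, a partner of a phosphatase that acts on Mdm2, was at 279, 191, 231, 423, 308 and 433 CPM in WT 1 to 6. In RGECO 1, 2, 3, 5 and 6 it was at 463, 509, 378, 327 and 606 CPM. The lines overlapped, since WT 4 and WT 6 lay above RGECO 3 and RGECO 5, and the log2 fold change of 0.56 ± 0.21 (SE) was not called (edgeR adjusted p = 0.128). Without WT 6 it was 0.68 and passed (adjusted p = 0.0489). The other growth regulators did not pass. Plk2 had means of 377 CPM in WT and 319 CPM in RGECO, a log2 fold change of −0.24, and RGECO 5, at 254 CPM, was its lowest library. Phlda3 had 249.35 and 301 CPM (0.27), and Cd82 260.0 and 273 CPM (0.07). Gtse1, a microtubule-associated protein that binds p53, had 20.8 and 21.7 CPM (0.07). Markers of fibroblasts and muscle moved in both directions between the lines, as given above, and their part in these differences was not tested.

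None of the genes of apoptosis passed, though the BH3-only genes had the widest differences among them. Bbc3, which encodes Puma, an inhibitor of the anti-apoptotic Bcl2 family, was at 29.0, 31.2, 21.5, 11.2, 11.1 and 10.97 CPM in WT 1 to 6. In RGECO 1, 2, 3, 5 and 6 it was at 34.6, 34.7, 35.7, 55.8 and 24.7 CPM, so only RGECO 6 lay within the WT range. The means were 19.2 ± 9.41 (SD, n = 6) and 37.1 ± 11.4 CPM (SD, n = 5), or 0.95 ± 0.30 on the log2 scale (SE; edgeR adjusted p = 0.0666). It passed without WT 1 (1.12, adjusted p = 0.0390) or WT 2 (1.15, adjusted p = 0.0231). Pmaip1, which encodes Noxa, another BH3-only protein, was at 31.7 ± 10.8 CPM in WT (SD, n = 6) and 50.3 ± 10.5 CPM in RGECO (SD, n = 5), with a log2 fold change of 0.67 ± 0.22 (SE; edgeR adjusted p = 0.0703). Only WT 6, at 48.5 CPM, reached the RGECO range of 40.3 to 67.4 CPM, and without it the value was 0.84 (adjusted p = 0.0147). Bax, the protein that permeabilises the mitochondrial outer membrane, was at 36.8, 48.8, 32.0, 28.2, 29.4 and 24.7 CPM in WT 1 to 6. Its RGECO libraries 1, 2, 3, 5 and 6 were at 34.1, 34.3, 40.9, 39.0 and 27.8 CPM, wholly inside the WT range, with a log2 fold change of 0.08 ± 0.17 (SE; edgeR adjusted p = 0.843).

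None of the death receptors and their partners passed. Eda2r, the receptor of ectodysplasin A2, was the most abundant of them, with means of 242 CPM in WT and 321 CPM in RGECO (log2 fold change 0.41). Its WT libraries spanned 159 to 332 CPM and its RGECO libraries 256 to 389 CPM, with wide overlap. Fas, the receptor of Fas ligand, had means of 8.15 and 9.33 CPM (0.20), and Tnfrsf10b, a receptor of the ligand TRAIL, 40.0 and 48.2 CPM (0.27). Tnfrsf10b overlapped only at its edge, since WT 4 (44.3 CPM) lay above RGECO 1 (44.0 CPM). Pidd1, which assembles a caspase-2 complex, had 4.03 and 5.21 CPM (0.35), and Apaf1, the scaffold of the apoptosome, 33.7 and 34.7 CPM (0.04). Aen, an apoptosis-enhancing nuclease, had 115 and 127 CPM (0.14), and Ei24, a membrane protein of the endoplasmic reticulum, 109.7 and 125 CPM (0.18). Trp53inp1, a nuclear protein that acts with p53, had 85.4 and 115 CPM (0.43), with libraries from 41.7 to 134 CPM in WT and from 81.2 to 152 CPM in RGECO. Adjusted p-values of these 8 genes ran from 0.154 (Tnfrsf10b) to 0.926 (Apaf1). Perp, a desmosome protein, was below the filter on low counts, with 70 counts over 6 WT libraries and 14 over 5 RGECO libraries, and was not tested.

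No gene of DNA repair passed. Xpc, which recognises damage in nucleotide excision repair, had means of 19.6 CPM in WT and 19.7 CPM in RGECO (log2 fold change 0.01), and Ddb2, another damage sensor, 3.75 and 3.74 CPM (0.00). Ercc5, an endonuclease of the same pathway, had 44.4 and 44.5 CPM (0.01). Polk, a translesion polymerase, had 32.2 and 43.3 CPM (0.42, edgeR adjusted p = 0.154), and WT 2, at 20.2 CPM, was its lowest library. Rrm2b, a subunit of ribonucleotide reductase, had 27.1 and 32.2 CPM (0.25, edgeR adjusted p = 0.587), and its WT libraries, from 16.7 to 45.2 CPM, enclosed all those of RGECO. For Xpc, Ercc5, Ddb2, Polk and Rrm2b the 95% interval lay within 2-fold. The files do not state strand, and 23.8% of the exon bases of Ddb2 overlap Acp2 on the other strand, so reads of these genes may not be separable.

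Among metabolic and secreted targets, Ddit4, an inhibitor of mTORC1, was at 42.2 to 131 CPM in WT (median 56.8 CPM). It was at 129, 130, 101, 226 and 82.9 CPM in RGECO 1, 2, 3, 5 and 6, overlapping WT 1 and WT 2, with a log2 fold change of 0.85 ± 0.34 (SE; edgeR adjusted p = 0.153). Gdf15, a secreted stress cytokine, had means of 55.7 and 80.6 CPM, a log2 fold change of 0.53 ± 0.21 (SE; edgeR adjusted p = 0.140), and 0.69 without WT 2 (adjusted p = 0.0342). Tigar, an enzyme that diverts glucose from glycolysis, went the other way at −0.60 ± 0.23 (SE; edgeR adjusted p = 0.137), with means of 8.24 ± 2.19 CPM in WT (SD, n = 6) and 5.47 ± 0.789 CPM in RGECO (SD, n = 5). Without WT 3, whose 4.15 CPM was the lowest value of the gene, Tigar was called lower (−0.72, adjusted p = 0.0359).

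The spread between libraries differed among the genes. The biological coefficient of variation fitted by edgeR ran from 13.8% for Zmat3, Cd82 and Tnfrsf10b to 38.6% for Ddit4, with Pidd1 at 37.3% and Bbc3 at 34.8%. The median was 20.3%, beside 21.9% over all genes tested. Part of this spread followed a split of the WT libraries by mitochondrial share, which was also a split by replicate number. WT 4, 5 and 6 had the highest shares of the WT libraries (1.16% to 1.68%), and WT 1, 2 and 3 the lowest (0.204% to 0.754%). All 3 of the former lay above all 3 of the latter for 7 of the 29 genes: Ccng1, Trp53inp1, Polk, Eda2r, Rrm2b, Apaf1 and Plk2. They lay below for 8: Bbc3, Ddit4, Btg2, Gdf15, Pidd1, Phlda3, Aen and Bax. Over all genes tested, 23.2% lay above and 21.8% below in this way, close to the 24.1% and 27.6% of the 29, and nothing particular to p53 genes is read from the split. In RGECO the library with the highest share, RGECO 6 (1.33%), held the highest RGECO value of 4 of the first 7 genes and the lowest of 6 of the 8. The 7 genes had transcripts of 38.8% to 48.0% GC (median 40.9%), and the 8 genes 49.7% to 65.2% GC (median 59.6%). The other 14 genes, at 42.1% to 55.3% GC, overlapped both. Transcript length differed as well, with a median of 4561 bases for the 7 genes and 1784.5 bases for the 8. Neither GC nor length was computed over all genes. What the mitochondrial share of a library reflects was not tested. In WT the share cannot be told apart from anything else that set WT 4, 5 and 6 apart from WT 1, 2 and 3.

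**Figure D4:**
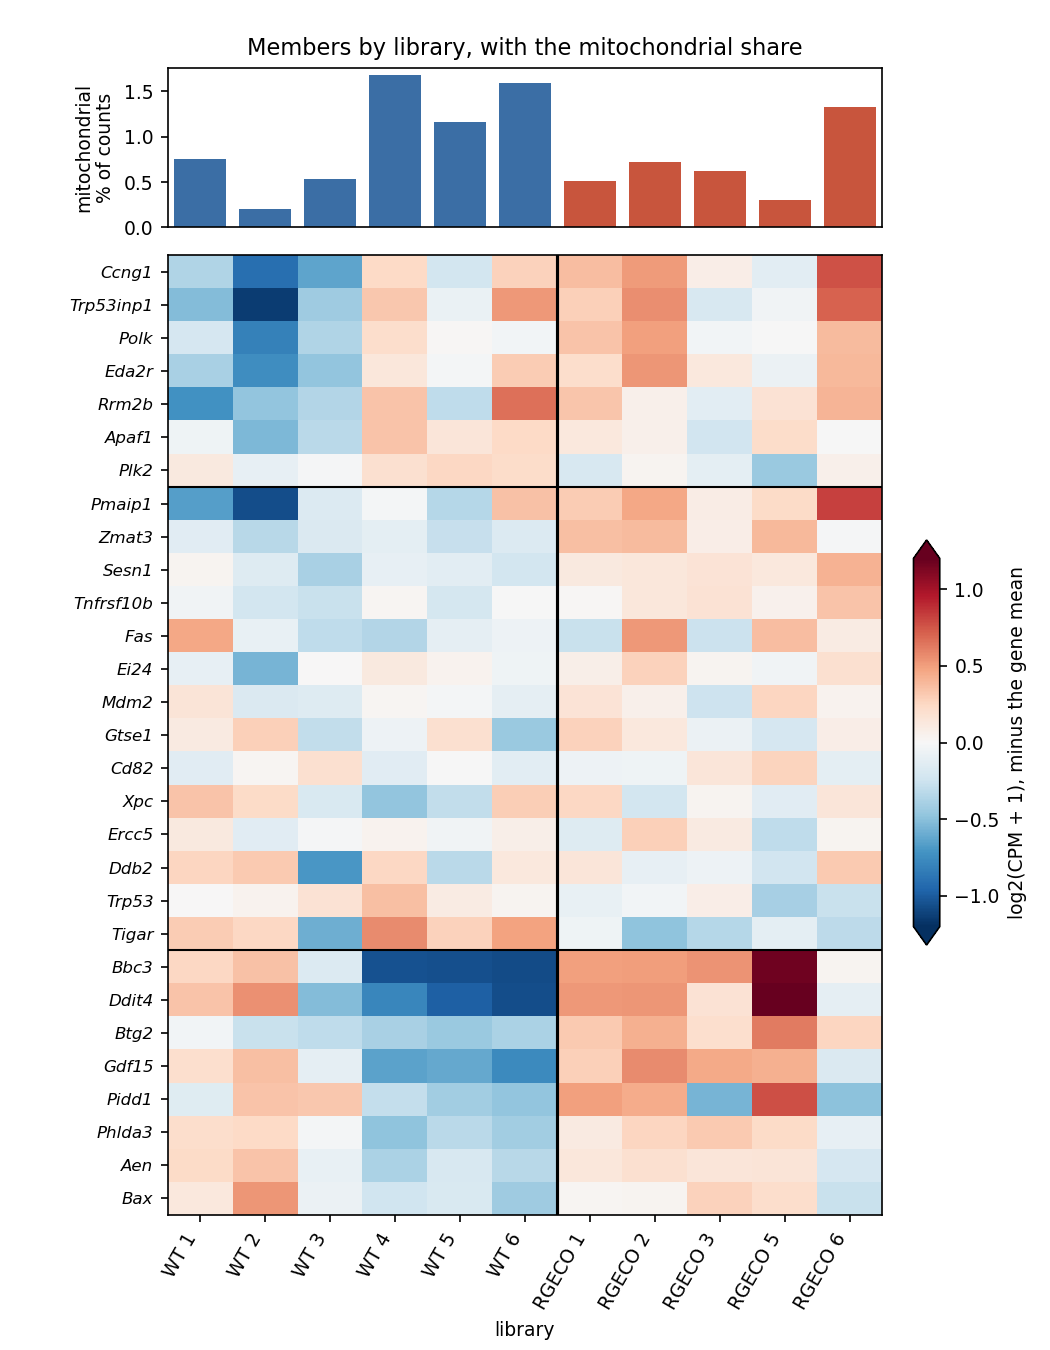
Lower panel: log2(CPM + 1) of the 29 genes tested minus the gene's mean, in each of 11 libraries in order of replicate within each line, with the 7 genes higher and the 8 genes lower in WT 4 to 6 at the top and bottom; the colour scale saturates at its ends. Upper panel: mitochondrial share of counts in percent, which is highest in WT 4 (1.68%) and, within RGECO, in RGECO 6 (1.33%).

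With the mitochondrial share as a covariate, 13 of the 29 genes (44.8%) were called higher in RGECO and 0 lower, where 12.1% of all genes were called higher and 11.4% lower (23.5% in all). In WT the share was also split by replicate number, as described above, so the fit cannot separate it from other differences between those libraries. Ccng1 then had a log2 fold change of 0.82 ± 0.09 (SE; edgeR adjusted p = 1.12e-06), Eda2r 0.62 (adjusted p = 6.13e-05), Pmaip1 0.89 (adjusted p = 1e-04) and Trp53inp1 0.76 (adjusted p = 1.43e-04). Btg2 (0.63), Zmat3 (0.44), Bbc3 (0.72), Sesn1 (0.39), Polk (0.59), Tnfrsf10b (0.33), Gdf15 (0.37), Rrm2b (0.48) and Ei24 (0.27) were the other 9. Trp53 (−0.24, edgeR adjusted p = 0.137) and Mdm2 (0.11, edgeR adjusted p = 0.458) still did not pass. The size of the Btg2 and Zmat3 differences moved little between the fits, whereas Ccng1 and Trp53inp1, which followed the share upwards in WT, gained, and Bbc3 and Gdf15, which followed it downwards, shrank while their standard errors fell. A share of the Malat1 transcript as covariate, added after the data were seen, gave 11 of the 29 (37.9%) higher beside 10.5% of all genes (10.3% were lower, 20.8% either way).

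**Figure D5:**
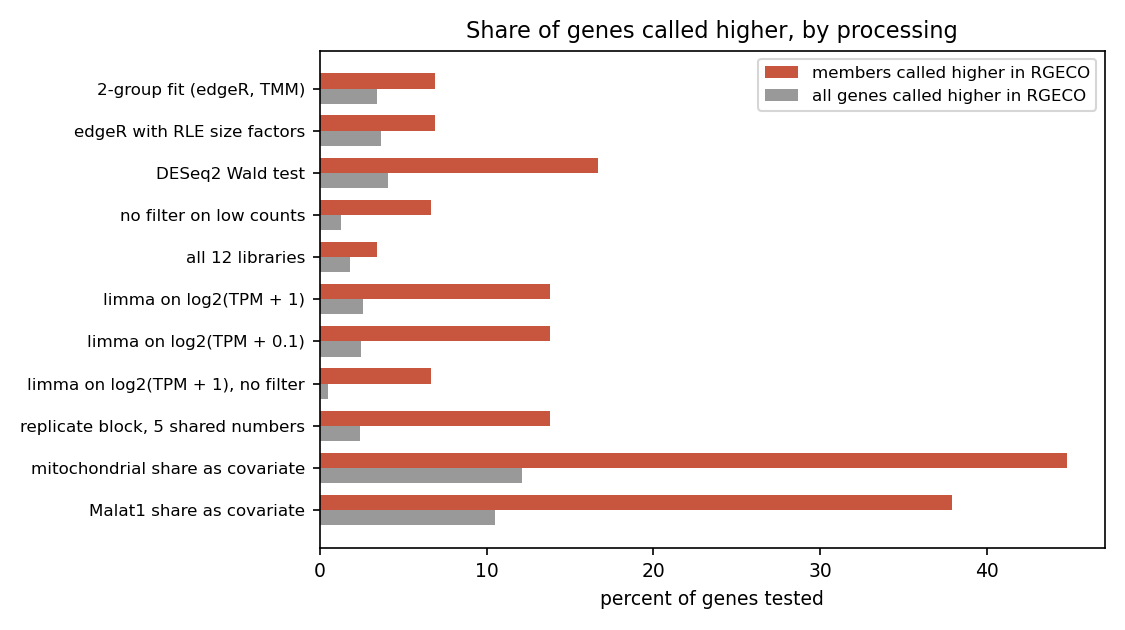
Percent of the p53 genes tested and of all genes tested that were called higher in RGECO, under each way of processing the data. The bars of the p53 genes reach 6.90% in the main comparison and 44.8% with the mitochondrial share as covariate, beside 3.42% and 12.1% of all genes.

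Of 23 upstream and partner genes 21 were tested, and 1 rose and 0 fell, 4.76% beside 8.35% of all genes in either direction. The gene that rose was Hipk2, a kinase that phosphorylates p53, from 169.8 ± 24.1 (SD, n = 6) to 274 ± 27.7 CPM (SD, n = 5), with a log2 fold change of 0.69 ± 0.11 (SE; edgeR adjusted p = 0.00132). That call held without any 1 of the 11 libraries (edgeR adjusted p up to 0.00549). It was lost with all 12 libraries (0.57, edgeR adjusted p = 0.383), where the added library held 825 counts. Chek1, a checkpoint kinase that phosphorylates p53, had the widest difference of the list, −2.09 ± 0.64 (SE; edgeR adjusted p = 0.0563), at 1.14 to 4.03 CPM in WT and 0 to 1.48 CPM in RGECO, and is named here after its values were seen. Mdm4, the relative of Mdm2 that blocks p53 transactivation, was at −0.13 (edgeR adjusted p = 0.761). Cdkn2a, whose Arf product inhibits Mdm2, had 0 counts in every library, so up to 3 counts a library remain possible.

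Of 39 further p53 targets 36 were tested, and 1 rose and 2 fell. This is 8.33% in either direction, near the 8.35% of all genes. The median log2 fold change was 0.05, and 55.6% of the values were positive beside 48.5% of all genes. Cdkn1a, the p21 inhibitor of cyclin-dependent kinases, was abundant in both lines, at 1223 ± 134 CPM in WT (SD, n = 6) and 1346 ± 113 CPM in RGECO (SD, n = 5). Its log2 fold change of 0.14 had a 95% interval from −0.08 to 0.36 (edgeR adjusted p = 0.492). The gene that rose was Cdc42bpg, a kinase, at 0.77 (edgeR adjusted p = 0.0202), a call lost without WT 5 or RGECO 1 (adjusted p up to 0.0625). Thbs1, a secreted matrix glycoprotein, fell by 0.55 on the log2 scale (edgeR adjusted p = 0.00271). The Thbs1 call held without any 1 of the 11 libraries (edgeR adjusted p up to 0.0151) and was lost with all 12 (edgeR adjusted p = 0.703). Igfbp3, which binds insulin-like growth factors, fell by 0.86 (edgeR adjusted p = 0.0291), a call lost without any 1 of WT 1, WT 2, WT 3, RGECO 1, RGECO 3 or RGECO 6 (adjusted p up to 0.0808), and by limma on log2(TPM + 1) (−0.62, adjusted p = 0.0704).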

How the data were processed

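RNA from 12 C2C12 libraries was sequenced, and the deposited tables hold Salmon's estimated counts per gene, made by the authors, and TPM per gene, also deposited by the authors. The submitters' processing notes name STAR, Salmon, BWA 0.7.12-r1039, bedtools 2.25.0 and the builds mm10, hg19 and GRCm39. What each was used for, the annotation release and the strandedness of counting were not given in the sources used. Gene coordinates, transcript GC and transcript length come from GENCODE M21 (GRCm38), matched by gene ID, with the longest transcript of each gene used.

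Estimated counts were rounded, genes with low counts were removed with filterByExpr, and 6 WT and 5 RGECO libraries (at least 1e+06 counts) were compared in R 4.3.3 with edgeR 4.0.16 (TMM, quasi-likelihood test, Benjamini-Hochberg adjustment over 13318 genes, threshold 0.05). CPM values use TMM-scaled library sizes. All adjusted p-values are from that test unless DESeq2 (1.42.0) or limma (3.58.1, on log2(TPM + 1)) is named. The fit was tested on simulated counts. No replicate pair differed by less than sampling noise. Some libraries' counts were fractional for Trp53, Mdm2, Bax, Eda2r, Plk2, Rrm2b, Cd82 and Apaf1, a sign of reads shared with other genes. Exon bases overlap another gene in Bax (12.2%, Gm45808), Rrm2b (8.04%, Gm49085), Ei24 (6.66%, Gm26787) and Tigar (3.34%, Platr31).

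Full values were given for members past the threshold and for Trp53, Mdm2, Ccng1, Bbc3 and Bax. Among other members, values of each RGECO library were added for Sesn1, whose groups did not overlap, and for Ddit4. For some others only single libraries were named. Where leaving out a library changed the call of a member, that fit was given. Of the other lists, genes past the threshold (at most 8) were named, with Cdkn1a, Mdm4 and Cdkn2a. Members and lists were chosen with earlier results of these data known. Alternatives were RLE and DESeq2 scaling, no filter, all 12 libraries, TPM with 2 pseudocounts, covariates, a replicate block and leaving out each library.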

Additional observations from a re-analysis of the deposited data

Results flagged for a closer look

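Of 58 groups of values checked (29 genes in each line), 5 had 1 library apart from the others of its line by Dixon's criterion, where chance alone is set to pick about 1 in 20. Sesn1 was at 58.8 CPM in RGECO 6, above the 47.4 to 48.9 CPM of the other RGECO libraries, and Aen was at 103 CPM there, below their 130.2 to 136 CPM. Ei24 was at 78.1 CPM in WT 2, below the 108 to 126 CPM of the other WT libraries. Fas, a death receptor, was at 12.1 CPM in WT 1, above the 6.39 to 8.06 CPM of the rest. Tigar was at 4.15 CPM in WT 3, below the 8.14 to 10.4 CPM of the others.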

How the results depend on the processing

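The main comparison called 1112 of 13318 genes (41.0% of the calls higher, 3.42% of genes tested) and 2 p53 genes. Limma on log2(TPM + 1) called 605 (56.9% of the calls higher, 2.58% of genes tested) and 4 p53 genes. With a pseudocount of 0.1 it called 587 (2.48% of genes tested higher) and 4. On TPM without a filter, with 29168 genes tested, it called 258 (0.480% higher) and 2. The mitochondrial share gave 3135 (51.5% of the calls higher, 12.1% of genes tested) and 13. The Malat1 share gave 2772 (10.5% of genes tested higher) and 11. DESeq2, with 16680 genes tested, called 1596 (4.09% higher) and 5. All 12 libraries, with 12998 genes tested, gave 820 (28.9% of the calls higher, 1.82% of genes tested) and 1 (Pmaip1). Leaving out 1 library gave 785 to 1140 genes, with 2 to 4 p53 genes higher (2.45% to 3.62% of all genes) and 0 to 1 lower. The labels give no pairing by replicate number. Deviations of the libraries from the mean of their line correlated between equal numbers at 0.46 for number 6. For the other numbers the values ran from −0.21 to 0.04. Number 6 was also the 1 of 5 that correlated best with its own number. With 5 numbers this does not settle whether the samples are paired. A replicate block was fitted on the 5 shared numbers only, so WT 4 was left out as well. It called 781 of 13135 genes (2.41% of those tested higher) and 4 p53 genes higher (Ccng1, Zmat3, Btg2 and Pmaip1). Igfbp3, Ccnb1, Ccne1, Aurka, Aurkb and Plk1 lost their calls in that fit.

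Small log2 fold changes changed sign. Without a filter these were Xpc (−0.0049), Ddb2 (−0.01) and Ercc5 (−0.0036). With all 12 libraries they were Mdm2 (−0.0011), Xpc (−0.01), Ddb2 (−4.9e-06), Ercc5 (−0.01), Cd82 (−0.05) and Cdkn1a (−0.10). Xpc was at −0.06 with the replicate block. With the mitochondrial share Bax was at −0.04, Xpc at −0.02 and Mdm4 at 0.05. With the Malat1 share Bax was at −0.10 and Mdm4 at 0.15. Leaving out 1 library spanned −0.07 to 0.09 for Xpc, −0.12 to 0.09 for Ddb2, −0.06 to 0.07 for Ercc5, −0.04 to 0.13 for Apaf1 and −0.0019 to 0.14 for Gtse1. The cause was not tested. Depth limits Perp, Pidd1, Ddb2 and Tigar most.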

Other observations

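Genes of proliferation, many of which p53 represses through p21, were lower in RGECO in 5 of 24 cases and higher in 1 (25% in either direction, beside 8.35% of all genes), with a median log2 fold change of −0.47 beside −0.01 over all genes. Ccnb1, the mitotic cyclin B1, fell by 0.84 (edgeR adjusted p = 0.00659), Foxm1, a transcription factor of mitotic genes, by 0.75 (adjusted p = 0.00925) and Aurka, a mitotic kinase, by 0.69 (adjusted p = 0.0192). Ccne1, cyclin E1 of the G1/S transition, rose by 0.72 (adjusted p = 0.0185). Aurka lost its call without WT 5 or RGECO 2 (adjusted p up to 0.0632). Aurkb, another mitotic kinase (−0.64, adjusted p = 0.0282), lost its call without any 1 of WT 3, WT 4, WT 5, WT 6, RGECO 1, RGECO 5 or RGECO 6 (adjusted p up to 0.0743). Plk1, a mitotic polo-like kinase (−0.61, adjusted p = 0.0469), lost it without any 1 library except WT 6 (adjusted p up to 0.121). Without a filter on low counts Ccne1 (adjusted p = 0.0588), Aurkb (0.0557) and Plk1 (0.125) were not called. By limma on log2(TPM + 1) Foxm1 (adjusted p = 0.234), Aurka (0.172), Aurkb (0.539) and Plk1 (0.145) were not called.

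Of 19 genes of the apoptosis machinery outside the p53 list that were tested, 2 rose and 0 fell, 10.5% beside 8.35% of all genes and so near the background. Both encode survival proteins that BH3-only proteins such as Puma bind. Bcl2 was at 5.19 to 9.03 CPM in WT and 14.7 to 18.4 CPM in RGECO, a rise of 1.27 ± 0.17 on the log2 scale (SE; edgeR adjusted p = 2.66e-04). Bcl2l1, which encodes Bcl-xL, rose by 0.65 (edgeR adjusted p = 0.0141). The Bcl2l1 call held without any 1 of the 11 libraries (edgeR adjusted p up to 0.0403) and was lost with all 12 (edgeR adjusted p = 0.147). Of 14 genes of the integrated stress response 1 rose and 2 fell, 21.4% beside 8.35% of all genes. Ddit3, the transcription factor Chop, rose by 0.94 (adjusted p = 0.00785), while Atf4, the transcription factor upstream of it, fell by 0.45 (adjusted p = 0.00456) and Fgf21, a secreted hormone, fell by 1.03 (adjusted p = 0.0101). The Atf4 call held without any 1 of the 11 libraries (edgeR adjusted p up to 0.0202). Atf4 was not called by limma on log2(TPM + 1) (−0.34, adjusted p = 0.0753) or with all 12 libraries (edgeR adjusted p = 0.622).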
